A study of Mus musculus with 8 samples.

Results

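The natriuretic peptide system of the heart was followed through 7 genes: the peptide genes Nppa, Nppb and Nppc, the receptor genes Npr1, Npr2 and Npr3, and Corin, the gene of a protease that cuts pro-ANP. Every non-control probe whose gene name in the array files was one of these was taken, which gave 7 probes in 16 spots, out of 39429 probes in 43020 non-control spots. The Nppa probe has 10 spots, as 399 probes of this design do, and the other 6 have 1 each. Left ventricles of male C57Bl/6j mice were compared after 8 weeks on chow with 0.4% sodium (normal salt, 4 mice) or 0.05% sodium (low salt, 4 mice), begun at 8 weeks of age, with death at 16 weeks. C57Bl/6j is an inbred strain, no transgene or drug beyond the final anaesthetic is named in the labels, and septum, free wall and apex were homogenised together. Each of the 4 arrays of 2 colours carried a pair of mice of the same diet, mice 1 and 3 in Cy3 and mice 2 and 4 in Cy5, which left each array with 1 diet and both dyes. The question is how dietary salt bears on expression of these genes in the left ventricle.

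ANP and BNP, the products of Nppa and Nppb, are hormones that heart muscle cells release under stretch and load. Both bind the receptor encoded by Npr1, a guanylyl cyclase whose cyclic GMP relaxes vessels, promotes sodium excretion by the kidney and opposes renin and aldosterone. CNP, from Nppc, acts on the cyclase encoded by Npr2 and is chiefly a local signal of endothelium and cartilage, and Npr3 encodes the receptor that removes the peptides from circulation. In the adult heart ANP is made mostly by the atria, and both peptide genes are members of the fetal programme that a loaded ventricle turns on again.

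Nppa and Nppb are neighbours. No gene lies between them in the RefSeq order of mouse chromosome 4, and the array probes, in mm9, stand at chr4:147376024-147376083 for Nppa and chr4:147360489-147360548 for Nppb, both on the plus strand. The exon or coding position of the probes is not given in the sources used here. The Nppb probe is printed because the largest difference rests on this single spot sequence, 60 bases long, with no stop codon in any of its 3 forward reading frames. The 250 bases upstream of the start of each peptide gene are shown from RefSeq (GRCm38.p6, plus strand, chr4:147985650-147985899 for Nppb and chr4:148000472-148000721 for Nppa), because the genes are adjacent and their diet differences are set against each other further on. All 7 genes had such an entry. Capitals mark matches to 5 motifs:
Nppb probe: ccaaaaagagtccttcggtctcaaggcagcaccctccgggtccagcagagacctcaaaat
Nppb promoter: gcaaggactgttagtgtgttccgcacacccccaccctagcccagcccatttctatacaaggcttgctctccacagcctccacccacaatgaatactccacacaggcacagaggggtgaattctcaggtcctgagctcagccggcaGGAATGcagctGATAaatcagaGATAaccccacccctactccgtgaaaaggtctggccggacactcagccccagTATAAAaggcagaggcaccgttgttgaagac
Nppa promoter: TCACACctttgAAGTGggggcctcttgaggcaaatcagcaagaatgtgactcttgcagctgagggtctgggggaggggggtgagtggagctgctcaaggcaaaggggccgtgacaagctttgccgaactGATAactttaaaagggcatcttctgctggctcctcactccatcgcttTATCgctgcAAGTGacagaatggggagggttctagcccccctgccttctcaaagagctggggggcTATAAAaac

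The letters searched were GATA, the core that GATA4 binds, which reads TATC from the other strand. The MCAT element of TEAD factors was searched as CATTCC, which from the other strand reads GGAATG. A core of NKX2-5 sites was searched as AAGTG, in reverse complement CACTT. A core of T-box sites was searched as TCACAC, in reverse complement GTGTGA. The TATA box was searched on the forward strand alone, as TATAAA. None of the matches overlap. GATA was found at 94 and 83 bases upstream of the Nppb start and at 121 and 74 bases upstream of the Nppa start, and 53.6% of 32851 RefSeq windows of the same length hold it. TATAAA was found 31 bases upstream of Nppb and 9 bases upstream of Nppa (7.59% of windows). The MCAT letters were found only in the Nppb window, 105 bases upstream (12.6% of windows). The AAGTG letters, at 239 and 65 bases upstream, and the TCACAC letters, at 250, were found only in the Nppa window (40.7% and 12.3% of windows). A match of letters describes the sequence and is not a measured site.

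All values are normalised log2 intensities, on which a step of 1 is a doubling of signal. Levels of different genes cannot be set against each other, since each probe has its own brightness. Median spot signal over the 8 samples was 116 to 147, against a median background of 15.5 to 33.5, and between 53.0% and 66.3% of non-control spots were well above background. Differences are low salt minus normal salt, with limma adjusted p over the 18093 genes tested and a threshold of 0.05, and the small number of arrays, 4, limits how precise each can be. The labels name each sample as a mouse of its own, numbered within its diet. All 9 listed markers of heart muscle were well above background, with a mean log2 intensity of 16.15 to 16.80 per mouse. As a set they do not tell ventricle from atrium. In a homogenised ventricle, fewer cells of a type and less RNA per cell cannot be told apart.

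Nppb stood higher on low salt in every mouse, at 2.82-fold the normal salt signal, and missed the threshold. Its values were 13.55, 13.14, 13.52 and 13.90 in normal salt mice 1 to 4, and 15.39, 14.73, 15.17 and 14.80 in low salt mice 1 to 4. The lowest low salt mouse lay above the highest normal salt mouse, so the groups did not overlap. Groups stood apart in this direction in 8.04% of all genes. The means were 13.53 ± 0.31 (SD, n = 4) and 15.02 ± 0.31 (n = 4), a difference of 1.50 ± 0.28 (SE; limma adjusted p = 0.0572), with a 95% interval of 0.86 to 2.13, or 1.82-fold to 4.38-fold. Among the 18093 genes it ranked 24 from the top by signed difference and 179 by p. When mouse number replaced the array as block the difference passed (limma adjusted p = 0.0107). That fit takes mice of an array as independent. The difference also passed with array kept as a random block beside the mouse number (limma adjusted p = 0.0294), a fit chosen after seeing the data. The labels state no pairing of mice by number across the diets, and mice of the same number share a dye. The Nppb difference missed with arrays averaged, which takes the array as the unit.

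The spot itself was bright and unsaturated in each mouse. Its mean signal before normalisation was 8583, 11913, 9867 and 19340 in normal salt mice 1 to 4, and 32337, 29473, 32066 and 41567 in low salt mice 1 to 4, against local backgrounds of 16 to 37. Within each dye every low salt signal was above every normal salt signal. After normalisation the Cy3 mice differed by 1.74 and the Cy5 mice by 1.25. The spot stood in a stretch of uneven signal, as 26.4% of the genes tested did. Over the 134 measured spots around it the local low minus normal difference was 0.19, with normal salt mice 1 and 2 at -0.26 and -0.25 and the other 6 mice at 0.06 to 0.11. The difference of Nppb was 1.31 with this local trend subtracted (adjusted p = 0.0668) and 1.23 with the trend of its 24 bright neighbours subtracted (adjusted p = 0.124).

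**Figure D1:**
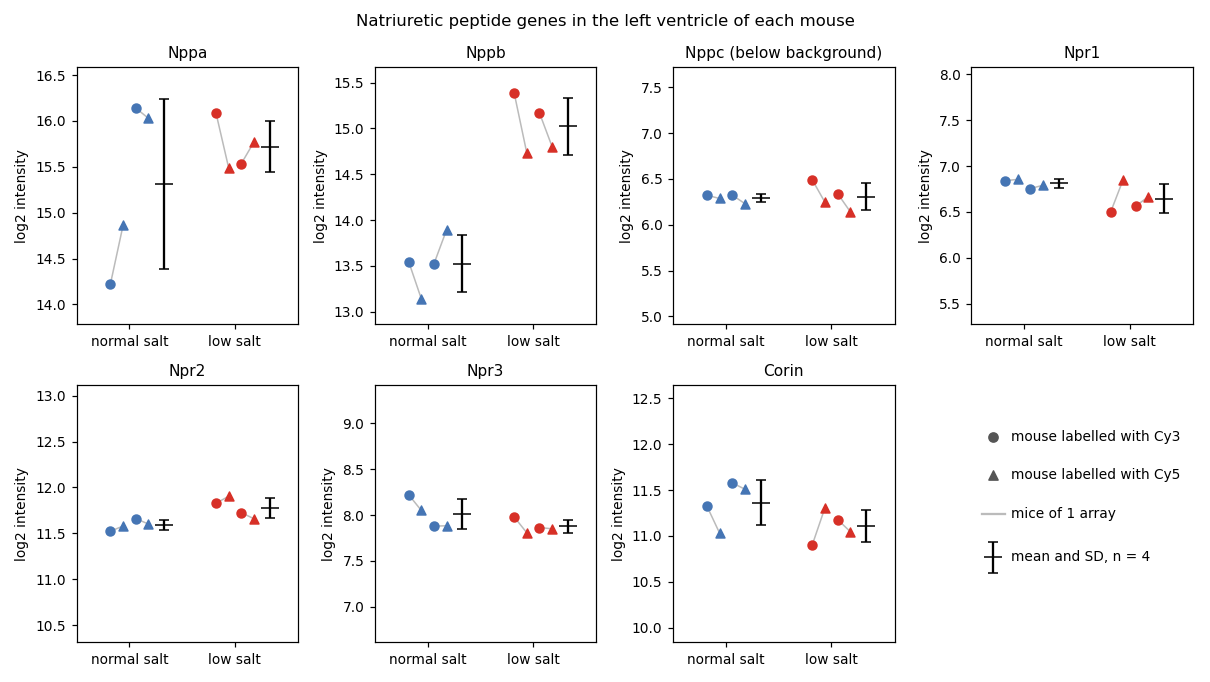
Normalised log2 intensity of the 7 genes in each mouse (circles Cy3, triangles Cy5; blue normal salt, red low salt; grey lines join the mice of 1 array; black bars are the mean and SD, n = 4), with the same height of axis in every panel. For Nppb every low salt mouse is higher than every normal salt mouse, the normal salt mice of Nppa fall into a low and a high pair by array, and the groups overlap for the other genes.

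Leaving out single mice moved the Nppb difference between 1.34 and 1.70. It passed without normal salt mouse 4, the highest of its group (1.70, adjusted p = 0.00700), and had adjusted p values of 0.0972 to 0.152 without each other mouse. Over 29 alternative settings the difference was always positive, from 1.23 to 1.74, and it was past the threshold in 9 of them. Some of these passes come from fits that take mice of an array as independent, or that leave a single array for 1 diet.

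**Figure D2:**
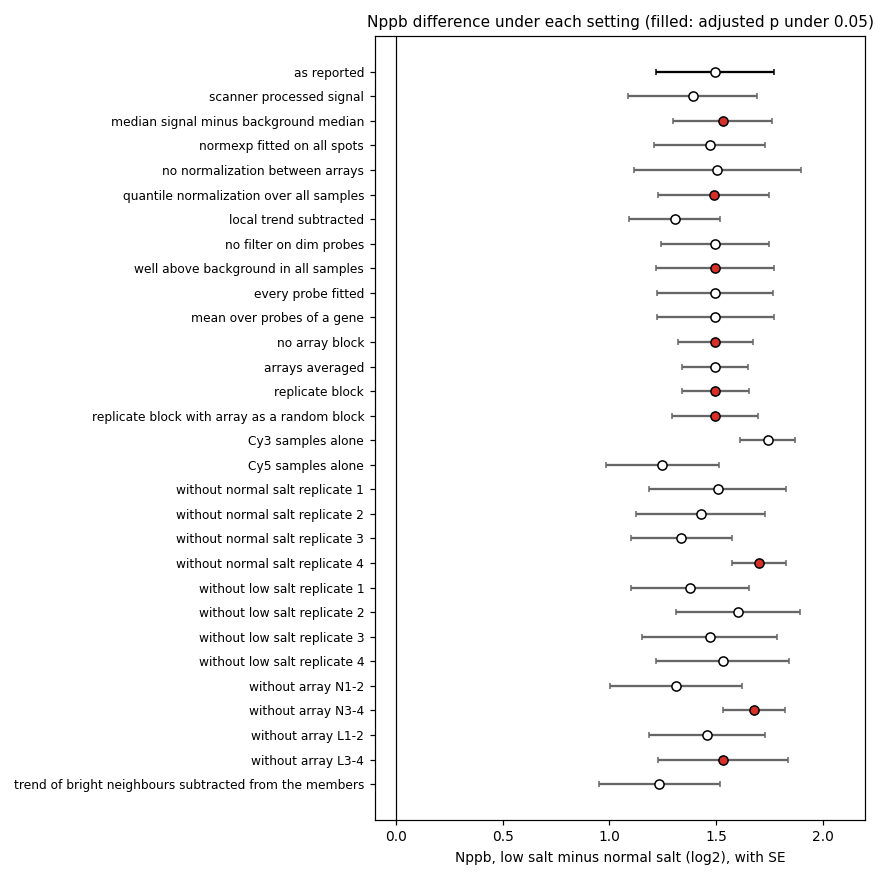
Low minus normal difference of Nppb (log2, x axis) with its SE under each setting (y axis), where filled points have an adjusted p under 0.05. All values lie between 1.23 and 1.74, to the right of 0, and 9 of the 29 alternatives are filled.

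Nppa, the gene of ANP, showed no such separation. Its values were 14.23, 14.87, 16.14 and 16.03 in normal salt mice 1 to 4, and 16.09, 15.49, 15.53 and 15.77 in low salt mice 1 to 4. Normal salt held both the lowest mice of all and the highest, and the low salt mice lay between them. The means were 15.32 ± 0.93 (SD, n = 4) and 15.72 ± 0.27 (n = 4), a difference of 0.41 ± 0.49 (SE; limma adjusted p = 0.771). The 95% interval ran from 0.612-fold to 2.87-fold, so these mice allow a fall or a rise of Nppa of that size.

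The spread of Nppa lay between arrays of normal salt mice. The mean of normal salt mice 1 and 2, which shared an array, was 14.55, and that of mice 3 and 4 was 16.08, a gap of 1.54, whereas the low salt arrays were 0.14 apart. The 10 spots of the probe gave the same picture within each mouse: their SD was between 0.034 and 0.153, against 0.93 between normal salt mice. In the 7 spots with no flagged value in any mouse, the diet difference was 0.33 to 0.50. The local difference around the 10 spots was between -0.003 and 0.21, and the Nppa difference was 0.34 with the local trend subtracted. With the array of normal salt mice 1 and 2 left out the difference turned to -0.36 (adjusted p = 0.728), and with that of normal salt mice 3 and 4 left out it was 1.17 (adjusted p = 0.247). In either value a single array stands for normal salt, and its effect and that of diet cannot be told apart.

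**Figure D3:**
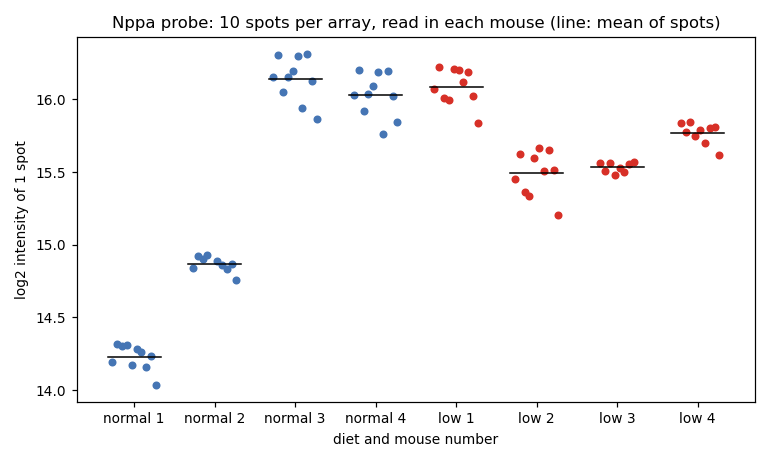
Log2 intensity of each unflagged spot of the Nppa probe (points, 8 to 10 per mouse) in each mouse (x axis; blue normal salt, red low salt), with the mean of the spots as a line. Spots of a mouse lie within an SD of 0.153 or less, while normal salt mouse 1 averages 14.23 and mouse 3 averages 16.14.

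The difference between both peptide genes was itself tested. The value of Nppb minus that of Nppa, which has a meaning only as it changes between mice, was -0.68, -1.72, -2.62 and -2.13 in normal salt mice 1 to 4, and -0.70, -0.76, -0.36 and -0.97 in low salt mice 1 to 4. Normal salt mouse 1 lay among the low salt mice, and the other normal salt mice lay below all of them. Nppb moved 1.09 further than Nppa (2-sided exact permutation test over the 70 splits of the 8 mice, p = 0.0571, where the smallest p possible is 0.0286). This missed the threshold, and it passed without normal salt mouse 1 (1.43, exact permutation p = 0.0286, the smallest that 7 mice allow). That pass follows from leaving out the mouse that overlapped the low salt group. With the local trend subtracted the value was 0.96 (exact permutation p = 0.143). With the scanner's processed signal it was 1.04, and with quantile normalisation 1.11 (exact permutation p = 0.0857 for each). Mice of an array are not independent, which the permutation does not take into account.

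Markers of atrial muscle varied between these ventricles and are given beside Nppa because atrial cells are its main source. Of 11 atrial markers 10 were measured, and Bmp10 was below the filter. Their summed intensity was 10236 to 70251 on normal salt and 5978 to 27026 on low salt. The mean log2 intensity of the 10 was 9.02, 9.96, 10.66 and 10.61 in normal salt mice 1 to 4, and 8.59, 9.88, 9.08 and 9.19 in low salt mice 1 to 4. On normal salt the mice ran in the same order for Nppa as for these markers. On low salt mouse 1, with the lowest markers, had the highest Nppa, and mouse 2, with the highest markers, had the lowest. Myl4, the atrial light chain gene, was 12.35, 14.49, 15.50 and 15.30 on normal salt and 11.002, 13.97, 12.36 and 12.43 on low salt. Sln, the gene of sarcolipin, a calcium pump inhibitor of atrial muscle, was 10.17, 12.42, 13.84 and 13.38 on normal salt and 8.79, 12.07, 10.42 and 9.83 on low salt. The median diet difference of the 10 markers was -0.65, with 9 lower and 0 past the threshold. The part of these markers in the values of Nppa and Nppb was not tested.

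**Figure D4:**
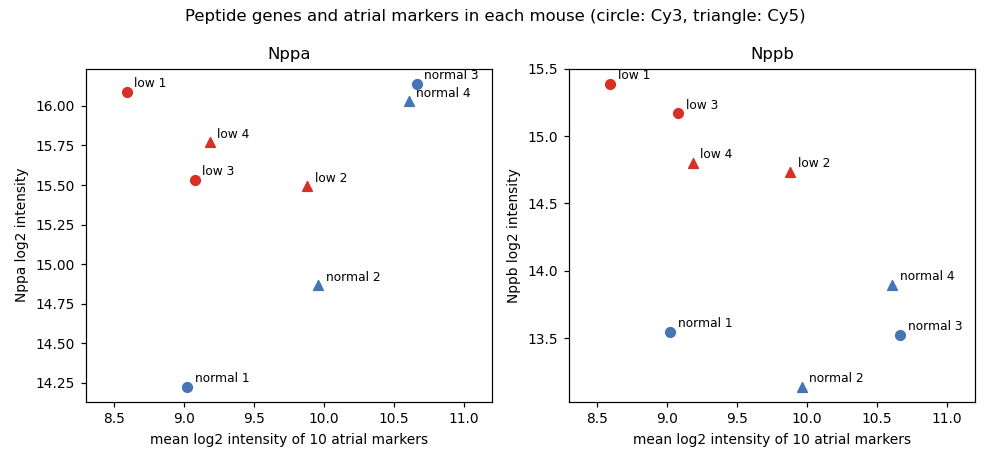
Log2 intensity of Nppa (left) and Nppb (right) in each mouse against the mean log2 intensity of 10 atrial markers (blue normal salt, red low salt; circles Cy3, triangles Cy5). Normal salt mice 3 and 4, highest in the markers at 10.66 and 10.61, are high in Nppa and not in Nppb, and in Nppb low salt mice are the higher ones across marker values of 8.59 to 9.88.

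Nppc, the CNP gene, was not measurable in these ventricles. Its probe (chr1:88563020-88563079, minus strand, mm9) was not well above background in any of the 8 mice, with log2 values of 6.23 to 6.32 on normal salt and 6.14 to 6.49 on low salt. The raw spot signal was 52.5 to 96.6 against a local background of 16.5 to 34.5, and no test was made.

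Corin, the protease gene, did not separate the diets. Its values (probe chr5:72692288-72692347, minus strand) were 11.33, 11.03, 11.58 and 11.51 in normal salt mice 1 to 4, and 10.90, 11.31, 11.18 and 11.05 in low salt mice 1 to 4. Normal salt mouse 2 lay among the low salt mice. The difference was -0.25 ± 0.21 (SE; limma adjusted p = 0.657; 95% interval -0.73 to 0.22), from 11.36 ± 0.24 (SD, n = 4) to 11.11 ± 0.17 (n = 4).

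None of the 3 receptor genes passed. Npr2, the gene of the CNP receptor, was 11.52, 11.58, 11.66 and 11.60 in normal salt mice 1 to 4, and 11.83, 11.90, 11.73 and 11.66 in low salt mice 1 to 4 (probe chr4:43664035-43664094, plus strand). The groups touched at 11.66, where low salt mouse 4 met normal salt mouse 3, and the other low salt mice were higher. The difference was 0.19 ± 0.10 (SE; limma adjusted p = 0.523; 95% interval -0.05 to 0.43), from 11.59 ± 0.057 (SD, n = 4) to 11.78 ± 0.11 (n = 4).

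Npr3, the gene of the clearance receptor, was 8.22, 8.05, 7.88 and 7.88 in normal salt mice 1 to 4, and 7.98, 7.81, 7.86 and 7.85 in low salt mice 1 to 4 (probe chr15:11769937-11769996, minus strand). The ranges overlapped, and the normal salt mice of the first array were the highest of their diet. The difference was -0.13 ± 0.12 (SE; limma adjusted p = 0.675; 95% interval -0.40 to 0.14). Npr3 is also a marker of endocardium. The 6 measured endocardial markers, Npr3 among them, had a median difference of -0.09 with 4 lower and 0 past the threshold.

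Npr1, the gene of the receptor for ANP and BNP, was dim. Its values were 6.84, 6.86, 6.75 and 6.79 in normal salt mice 1 to 4, and 6.50, 6.85, 6.57 and 6.67 in low salt mice 1 to 4. It was well above background in the 4 Cy5 mice, 2 of each diet, and in none of the Cy3 mice. The difference was -0.17 ± 0.12 (SE; limma adjusted p = 0.621; 95% interval -0.45 to 0.12), and low salt mouse 2 overlapped the normal salt group. Its probe is listed at chr3:90259171-90259664 on the minus strand, a span of 494 bases for a probe of 60. Endothelial cells, which carry this receptor, had markers with a median difference of -0.41, 9 of 10 lower and 0 past the threshold. The part of these markers in the Npr1 and Npr3 values was not tested.

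Of the 7 genes, 6 were tested and 0 passed (limma; 1 of them, Nppb, had an unadjusted p under 0.05). Over all genes tested 0.868% passed, 0.829% higher and 0.0387% lower on low salt, and 11.3% had an unadjusted p under 0.05. The median difference was 0.013 and 52.8% of genes were higher on low salt. These calls, 150 higher and 7 lower, depended on uneven parts of the arrays. With the local trend subtracted 32 were higher and 12 lower. On even parts alone (14099 genes) 2 were higher and 1 lower.

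The other genes of peptide processing and clearance did not pass either. Of 9 listed 5 were measured, 1 higher and 4 lower, with a median difference of -0.13. Mmel1, Mep1a, Mep1b and Ostn, the gene of a peptide that competes for the clearance receptor, were below the filter. Mme, the gene of neprilysin, which degrades natriuretic peptides, was 7.19 to 7.28 on normal salt and 7.03 to 7.15 on low salt, with no overlap (4.78% of all genes lay apart in this direction), and the difference was -0.13 (limma adjusted p = 0.629). A second, dimmer Mme probe read -0.05, and its groups overlapped. Furin, the gene of the convertase that cuts pro-BNP, read -0.09 (adjusted p = 0.755).

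Among the effectors of cyclic GMP, 16 of 18 genes were measured and 0 passed. Their median difference was -0.03, with 6 higher and 10 lower, and Prkg2 and Kcnma1 were below the filter. Pde1a, the gene of a phosphodiesterase that calmodulin activates, was 9.71, 9.66, 9.96 and 9.87 on normal salt and 10.46, 10.33, 10.18 and 10.07 on low salt. These groups did not overlap, as was so for 8.04% of all genes in this direction. The difference was 0.46 (limma adjusted p = 0.191), but a second, dimmer Pde1a probe read -0.17. Rgs4, the gene of a regulator of G protein signals, read -0.32 (adjusted p = 0.558). Prkg1, the gene of the main cyclic GMP kinase of muscle, read -0.10 (adjusted p = 0.805).

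Transcription factors known to act on Nppa and Nppb were measured for 20 of 21 genes, Hand1 being below the filter. None passed, 12 were higher and 8 lower, and the median difference was 0.10, or -0.01 with the local trend subtracted. Tbx3, a repressor of the chamber muscle programme, was 10.60, 10.90, 10.72 and 10.98 on normal salt and 10.21, 10.37, 10.16 and 9.91 on low salt. The groups did not overlap, with low salt lower, as was so for 4.78% of all genes. The difference was -0.63 (limma adjusted p = 0.215). The MCAT letters matched upstream of Nppb belong to an element of TEAD factors, and no binding was measured. Tead1 read 0.35 (adjusted p = 0.393), from a spot with a local difference of 0.44. With the local trend subtracted it read -0.09, and its other probes read 0.05 and 0.10.

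Genes that a loaded ventricle turns on, a list that holds Nppa and Nppb themselves, were measured for 14 of 16. Of these 9 were higher and 5 lower, with a median difference of 0.49 (0.43 with the local trend subtracted). In 5, Nppb among them, the lowest low salt mouse exceeded the highest normal salt mouse. Over all genes tested 8.04% lay apart in this direction. The list was chosen with earlier results of these data known, so its count is a description and no test. Rcan1, the gene of a calcineurin inhibitor, was the 1 that passed (0.89, limma adjusted p = 0.0336). Its spot had a local difference of 0.37, it read 0.52 with the trend subtracted (adjusted p = 0.167), and its call held only when no mouse, or normal salt mouse 4, was left out (adjusted p between 0.0842 and 0.111 for the others). The 5 lower members were Postn (-0.81, adjusted p = 0.4999), Ace (-0.36), Uchl1 (-0.24), Fhl1 (-0.16) and Xirp2 (-0.05), and none passed. Postn, Ace and Uchl1 lay in uneven parts, with local differences of -0.15, -0.16 and -0.21. With the trend subtracted they read -0.67, -0.20 and -0.04. The lower members and the higher genes that follow were named after their values were seen. Myh7 (1.47, limma adjusted p = 0.269), Ccn2 (0.57, adjusted p = 0.238) and Timp1 (0.31, adjusted p = 0.664) were higher, with overlapping groups. The Myh7 spot had a local difference of 0.48, and Myh7 read 0.999 with the trend subtracted. Gdf15 was higher (1.15, adjusted p = 0.310), and its groups did not overlap. Tnfrsf12a, the gene of the TWEAK receptor, was 12.32, 11.79, 12.41 and 12.36 on normal salt and 13.09, 12.80, 13.22 and 12.74 on low salt (0.74, adjusted p = 0.124), in a part of the arrays with a local difference of 0.008. Acta1, skeletal alpha-actin, was 13.53, 13.47, 12.77 and 13.49 against 15.16, 14.03, 14.58 and 15.16 (1.42, adjusted p = 0.332), and these groups did not overlap. Ankrd1, a load-responsive muscle gene, was not tested, since the spot of normal salt mouse 3 was flagged. It was 15.06, 15.63 and 15.04 in the other normal salt mice and 15.98, 16.10, 16.35 and 16.57 on low salt.

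**Figure D5:**
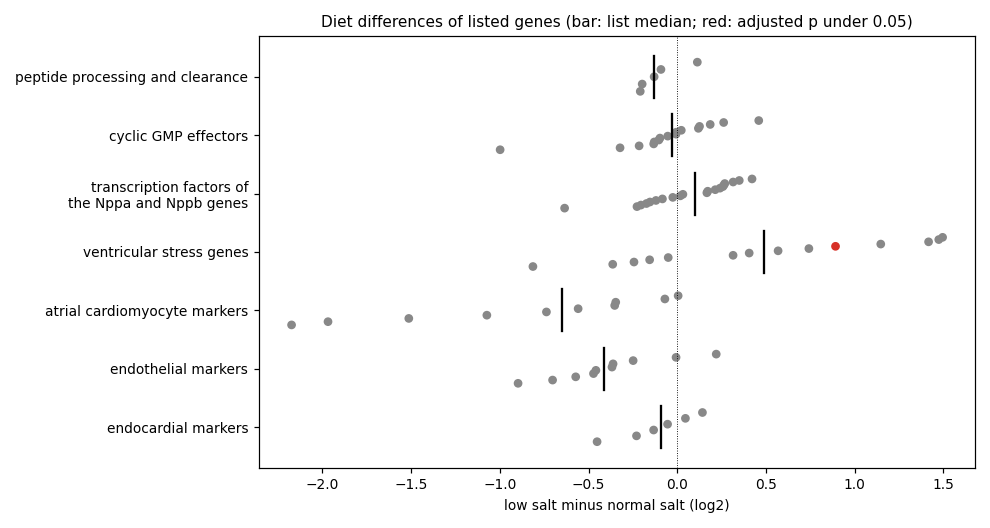
Low minus normal difference (log2, x axis) of each measured gene in 7 lists (rows), with the list's median as a bar and the gene past the threshold, Rcan1, in red. Medians run from -0.65 for atrial markers to 0.49 for ventricular stress genes, where Nppb is the highest point at 1.50.

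Other cell type lists had medians of -0.07 for the 9 heart muscle markers, -0.26 for conduction cells, -0.11 for smooth muscle and pericytes and -0.03 for fibroblasts. Medians were 0.25 for macrophages, -0.26 for mesothelium, -0.12 for blood, 0.21 for adipocytes and 0.10 for lymphocytes. None of their measured members passed (limma), and the lists of conduction cells, mesothelium, blood, adipocytes and lymphocytes rested on 2 to 4 measured genes each.

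The genes whose pattern over the 8 mice was most like each peptide gene were ranked by Pearson r of intensities centred within each dye, as a description over samples that share arrays. For Nppa these were Pde4a (r = 0.972), Ythdf1 (0.960), Hsd17b12 (0.949), Zfp536 (0.948) and Kmt2a (0.948). None passed (largest difference 0.16, lowest adjusted p = 0.663), and all 5 turned negative when the array of normal salt mice 1 and 2 was left out. As these genes were picked for their likeness to Nppa in the same mice, this shared turn follows from the choice. Pde4a, the gene of a cyclic AMP phosphodiesterase, was 11.98, 12.21, 12.56 and 12.61 in normal salt mice 1 to 4, so that, as for Nppa, normal salt held both the lowest and the highest of all mice. With all measured probes of Pde4a averaged its diet difference was 0.0016 in place of 0.15. For Nppb these were Strn (r = 0.991), Enah (0.990), Sh2d4a (0.989), Bloc1s6 (0.988) and Amot (0.987), with differences of 0.32 to 1.03, a shared direction that the choice by likeness fixes. Bloc1s6, the gene of a subunit of a complex for lysosome-related organelles, passed (1.03, limma adjusted p = 0.0203). Its spot had a local difference of 0.44, it read 0.59 with the trend subtracted (adjusted p = 0.0998), and its call ended without any of normal salt mice 1, 2 and 3 or low salt mice 3 and 4 (adjusted p between 0.0572 and 0.0799). Enah, the gene of an actin regulator, was 10.31, 10.27, 10.30 and 10.43 on normal salt and 10.72, 10.58, 10.73 and 10.68 on low salt (0.35, adjusted p = 0.269), in a part with a local difference of 0.05, and with all its measured probes averaged the difference was 0.19 (adjusted p = 0.519). Strn turned to -0.10 with the local trend subtracted.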

How the data were processed

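RNA of 8 left ventricles was read on 4 Agilent 2-colour arrays, all on 1 slide, so slide position and diet cannot be told apart. Spot and background intensity were deposited as scanned. Per the file headers the software was Feature Extraction 11.5.1.1 from Agilent, with coordinates on mm9. A sample's channel was taken from its dye, since both samples of an array carry the same deposited table. The deposited value table of the series was not used here.

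Flagged local backgrounds were replaced by the channel's median, and normexp (offset 50), loess within arrays and Aquantile between arrays followed (limma 3.58.1, statmod 1.5.0 and R 4.3.3). Control and flagged spots were left out. Spots were averaged by probe, a probe had to be well above background in 4 or more samples, and a gene was read from its brightest probe (18093 genes). Probes were named by accession (27508), gene name (3544), synonym (404) or as in the file (7973). The linear model had fixed effects of diet and of dye, with arrays as random blocks (duplicateCorrelation, 0.554), with eBayes and 2-sided Benjamini-Hochberg adjustment. The local trend is a running median over measured spots within 10 rows and 5 columns, and a spot was called uneven where the local diet difference passed 0.1.

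Same-numbered mice deviated together, with correlations of 0.304, 0.145, 0.166 and 0.192 for mice 1 to 4. Mice of the same number share a dye. With dye removed mice 1 and mice 3 shared 1 value, 0.210, and mice 2 and mice 4 another, 0.107. These are therefore not 4 separate correlations. Mice of the same number also lie on arrays numbered alike, so these values cannot tell a pairing of mice from a likeness of arrays. The labels state no pairing. The reported calls come from the fit without the mouse number, and the blocked fit is an alternative, given beside Nppb where it changes the call. The genes and lists were chosen with earlier results of these data known, as was the rule for named genes: all 7 genes, in each pathway list those past the threshold or else the 2 of smallest p, and the 5 genes most like Nppa and Nppb. Prkg1 and the measured levels of single markers were added after their values were seen. Alternatives covered background correction, normalisation, filters, probe choice, blocks, dyes, single mice and arrays, and the local trend.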

Additional observations from a re-analysis of the deposited data

How the results depend on the processing

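Npr1, Npr2, Npr3 and Corin kept their direction and stayed short of the threshold in every alternative run (29 for Npr1, 30 for each other), with differences of -0.95 to -0.02, 0.10 to 0.27, -0.26 to -0.006 and -0.43 to -0.07. Nppa did so in 29 of 30 and read -0.36 once the array of normal salt mice 1 and 2 was left out. It lay between 0.12 and 0.58 without 1 mouse. Nppb passed with median signal minus background (1.53, adjusted p = 0.0283), quantile normalisation (1.49, 0.0464), only probes well above background in all samples (1.50, 0.0497), no array block (1.50, 0.00529), the mouse number as a replicate block (1.50, 0.0107), that block with array as a random block, chosen after seeing the data (1.50, 0.0294), with the array of normal salt mice 3 and 4 left out (1.68, 0.00859) and with that of low salt mice 3 and 4 left out (1.53, 0.0489). The fits with no array block and with the replicate block alone take mice of an array as independent. With an array left out, a single array stands for 1 diet, and its effect and that of diet cannot be told apart. The Nppb difference was between 1.34 and 1.70 without 1 mouse. It missed with arrays averaged, which takes the array as the unit (1.50, 0.154), with the scanner's processed signal (1.39, 0.187), normexp on all spots (1.47, 0.0998), no normalisation between arrays (1.51, 0.462), the array of normal salt mice 1 and 2 (1.31, 0.133) or of low salt mice 1 and 2 (1.46, 0.145) left out, and in Cy3 (1.74, 0.102) and Cy5 (1.25, 0.346) alone. On even parts alone it has no value, as its spot lay in an uneven part. The replicate block changed no other call of the 7 genes and, of the other genes named by rule, only that of Sh2d4a (0.52, adjusted p = 0.0268), which did not pass with array as a random block beside it (adjusted p = 0.0815). The Nppb minus Nppa change was 0.68 to 1.43 without 1 mouse. The trend of bright neighbours was also chosen after seeing the data.

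The count of genes past the threshold, 157, was 40 with the processed signal, 44 with the local trend subtracted, 3 on even parts alone, 629 with no array block, 722 with the replicate block and 237 with array as a random block beside it. Without the arrays of normal salt mice 1 and 2, normal salt mice 3 and 4, low salt mice 1 and 2, and low salt mice 3 and 4 it was 267, 240, 82 and 1106, where 1 array stood for a diet. Without 1 mouse it was 56 to 129. It was 0 in limma with no normalisation between arrays, with arrays averaged, in Cy3 alone and in Cy5 alone, where an unadjusted p under 0.05 was found for 777, 1571, 1862 and 1253 genes. The cause of these changes was not tested.

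Tead1 turned to -0.087 with the processed signal and -0.091 with the local trend subtracted. Ythdf1 turned to -0.14 and -0.064 there, and Strn to -0.10 with the trend subtracted. With the array of normal salt mice 1 and 2 left out, Pde4a read -0.096, Ythdf1 -0.034, Hsd17b12 -0.25, Zfp536 -0.32 and Kmt2a -0.0018. Zfp536 also read -0.0071 in Cy5 alone and between -0.036 (without normal salt mouse 1) and 0.14 without 1 mouse. Few arrays, the dim Npr1 probe and the single Nppb spot limit these values.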

Other observations

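Pde5a, the gene of a phosphodiesterase that degrades cyclic GMP, had the widest spread of the cyclic GMP effectors. It read 11.24, 13.05, 8.79 and 12.11 in normal salt mice 1 to 4, and 13.22, 9.40, 9.53 and 9.04 in low salt mice 1 to 4. Mice sharing an array were as far apart as 3.82 log2 units, and the diet difference was -0.998 ± 1.86 (SE; limma adjusted p = 0.856). A second Pde5a probe was not well above background in any mouse, at 6.08 to 6.28. Postn, the gene of periostin, a matrix protein of activated fibroblasts, was 9.18, 9.13, 8.99 and 9.18 on normal salt and 7.86, 7.49, 8.54 and 9.33 on low salt (-0.81, limma adjusted p = 0.4999). Low salt mouse 4 was the highest of all 8 mice, and the other low salt mice lay below every normal salt mouse. The Postn spot had a local difference of -0.15, and Postn read -0.67 with the local trend subtracted. Both genes were chosen after their values were seen.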
